A study of Homo sapiens with 9 samples.

Results

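Collagens, laminins and integrins were followed in FIBP-depleted lung cancer cells. Genes were taken by symbol from the 9 transcript tables (COL, LAM, ITGA and ITGB names), and transcript FPKM (fragments mapped to a transcript, divided by its length and by the size of the library) were summed per gene. The symbols matched 82 of 60966 genes. Of these, 34 reached at least 1 FPKM in at least 3 samples and were tested, namely 13 of 44 collagens, 7 of 12 laminins and 14 of 26 integrins, out of 14985 genes tested in all. The choice used names and a minimum level, and it was made with earlier results of these data known. For some tested members the minimum level partly built in a difference between groups, as given below. Poly(A) RNA of H1299, a human cell line from a non-small cell lung carcinoma, was sequenced 48 h after siRNA transfection. There were 3 groups of 3 samples, transfected with the control siRNA Scramble or with the FIBP siRNA Si-FIBP#1 or Si-FIBP#2, so the control cells carried a transfected siRNA too. The labels call the samples of a group independent but do not say whether they came from separate cultures, so p-values measure the spread between these samples, which may be technical.

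Collagens are triple-helical proteins of the extracellular matrix. Collagen IV forms the network of basement membranes, collagen VI forms beaded filaments, and the transmembrane collagens sit in the plasma membrane. Laminins are cross-shaped trimers of an alpha, a beta and a gamma chain and are the main adhesive glycoproteins of basement membranes. Integrins are alpha-beta heterodimers that bind these ligands and couple them to actin through talin, kindlin and filamin. The alpha chain largely sets the ligand, and the beta 1 chain is the partner of most alpha chains studied here. In epithelia, the integrin of ITGA6 and ITGB4 binds laminin-332, which contains LAMA3 and LAMB3, in hemidesmosomes.

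FIBP, the targeted gene, had 88.38, 79.49 and 77.74 FPKM in Scramble, 7.49, 7.77 and 4.30 after Si-FIBP#1 and 7.13, 5.92 and 8.21 after Si-FIBP#2, which separated depleted from control samples in accordance with their labels and did not tell the siRNAs apart. Estimated depth ranged from 20150000 to 23850000 fragments per library, and 13894 to 14715 genes reached 1 FPKM. KRT8 and KRT18, keratins of simple epithelia, and VIM, a mesenchymal filament protein, were at 67.15 FPKM or more in every library, and EPCAM, an epithelial surface marker, was at most 0.28 FPKM. Of the leukocyte markers 5 of 5, of the endothelial markers 4 of 4 and of the fibroblast markers 5 of 6 stayed below 1 FPKM in all libraries, with DCN up to 1.42. Si-FIBP#2 replicate 2 was the only library that stood apart from its group for a gene with a mean of at least 100 FPKM (over 1 on the log2 scale from both other samples, which lay within 0.4 of each other). That gene was ITGB1. Where leaving out this library changed whether a collagen, laminin or integrin passed a test or a fold line, the value without it is given too.

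Of the 48 members that were not tested, 38 stayed below 0.5 FPKM in all 9 samples, and 3 of these (COL15A1, COL23A1 and ITGA8) were listed at 0 throughout. Another 9 peaked between 0.5 and 1 FPKM, among them LAMA3 with at most 0.75, LAMA4 with at most 0.69 and ITGB6 with at most 0.88. COL1A1, the alpha 1 chain of the main fibrillar collagen, lay just below the threshold. Its values were 0.03, 0.14 and 0.06 FPKM in Scramble, 0.35, 0.56 and 1.15 after Si-FIBP#1 and 0.97, 0.70 and 1.59 after Si-FIBP#2. With no filter its log2 differences were 0.62 and 0.93 (limma, adjusted p = 0.0698 and 0.0128). Its partner COL1A2 reached at most 0.02 FPKM. COL11A1, COL11A2 and COL28A1 also passed after Si-FIBP#2 with no filter, with differences of 0.43, 0.22 and 0.13 (limma, adjusted p = 0.0105, 0.039 and 0.0497). Their highest values in any sample were 0.80, 0.43 and 0.17 FPKM, so these differences rest on few fragments. COL16A1 lay just above the threshold, with 0.54 to 1.22 FPKM in Scramble, 0.25 to 0.42 after Si-FIBP#1 and 0.47 to 1.09 after Si-FIBP#2. In 6 tested members, at least 1 group had no sample at 1 FPKM. COL4A6 reached it in the FIBP-depleted samples alone, COL5A2 in Si-FIBP#1, COL9A3 in Scramble and Si-FIBP#1, and COL16A1, COL17A1 and ITGB3 in Scramble and Si-FIBP#2. For these a difference was partly built into the filter, so their tests are given with no filter on low genes, and counts are given with and without them.

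The levels of the tested members spanned from below 1 to 353 FPKM in Scramble, a scale that is already per length of transcript. In Scramble, ITGB1 was the highest with 353 ± 10.2 FPKM (mean ± SD, n = 3), followed by ITGA3 with 220 ± 10.1 and ITGA6 with 92.3 ± 2.79, and the samples of these 3 genes did not overlap. LAMB2 came next with 54.7 ± 14.1 FPKM and overlapped with ITGAE (39.7 ± 3.59) and ITGB5 (39.1 ± 2.25). LAMA5 and LAMC1 followed with 36.6 ± 4.65 and 34.8 ± 1.58 FPKM and overlapped with each other, and LAMB1 lay just below LAMC1 with 30.8 ± 1.60. The samples of LAMA5 also overlapped with those of LAMB2, ITGAE and ITGB5, so their order is not resolved. COL18A1, the precursor of endostatin, was the highest collagen with 25.1 ± 0.350 FPKM, above COL13A1 with 13.2 ± 1.43. The fibrillar collagens stayed low, and COL27A1 was the highest of them with 1.71 to 2.47 FPKM in Scramble. COL7A1, which forms anchoring fibrils, was measured at 0.92 to 2.71 FPKM. COL12A1, a fibril-associated collagen, was measured at 4.73 to 5.79 FPKM.

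To compare FIBP-depleted with control cells, all genes tested were fitted together on log2(FPKM + 1). A gene is said to have risen or fallen where the Benjamini-Hochberg adjusted p of limma was below 0.05, and to be called where the fold change on this scale was also over 2. With Si-FIBP#1, 4 members were called higher and 2 lower, beside 2.55% and 3.11% of all genes tested. With Si-FIBP#2, 7 were called higher and 3 lower, beside 2.92% and 2.13% of all genes. Without the fold threshold, 15 members rose and 6 fell after Si-FIBP#1, beside 27.8% and 19.9% of all genes, and 16 rose and 5 fell after Si-FIBP#2, beside 31.1% and 17.7%. The median log2 difference of the members was 0.30 after Si-FIBP#1 and 0.24 after Si-FIBP#2, against 0.073 and 0.11 over all genes tested. Without Si-FIBP#2 replicate 2, the Si-FIBP#2 counts were again 7 and 3, but not of the same members. LAMC1 (higher) and ITGA4 (lower) were no longer called, and ITGB4 (higher) and ITGB1 (lower) were called instead. Under median ratio scaling, which centres the bulk of genes, 2 and 4 members were called higher and 3 and 3 lower, and of all called genes 37.0% and 42.3% were higher, against 45.0% and 57.9%. The calls of COL6A1 (0.98), COL6A2 (0.99), LAMA2 (0.92) and LAMC1 (0.99 and 0.91) were lost under it because these log2 differences came to lie below 1. Both comparisons use the same Scramble samples, so they are not independent of each other. Bulk RNA was measured, in which fewer cells that express a gene and less RNA per cell cannot be told apart.

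**Figure D1:**
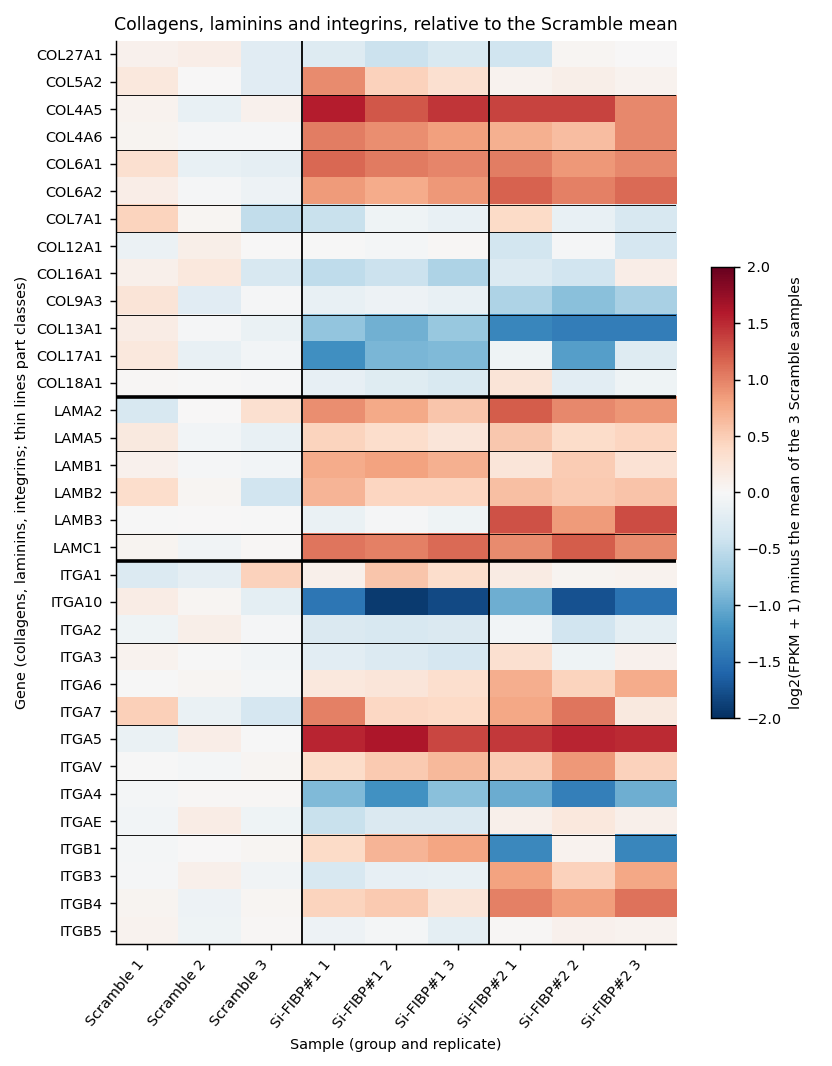
Each row is 1 of 33 tested genes and each column 1 of the 9 samples, and the colour gives log2(FPKM + 1) minus the mean of the 3 Scramble samples (red higher, blue lower). ITGA5, COL4A5 and LAMC1 are red and ITGA10 is blue in all 6 FIBP-depleted samples, and ITGB1 is blue in Si-FIBP#2 replicates 1 and 3 but not in replicate 2.

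By family, the laminins had the highest medians. Over all genes tested, 27.8% rose and 19.9% fell after Si-FIBP#1, and 31.1% rose and 17.7% fell after Si-FIBP#2. Of the 7 laminins, 6 rose after Si-FIBP#1 and 7 after Si-FIBP#2, and 0 fell with either siRNA. Among the 13 collagens, 5 rose and 2 fell after Si-FIBP#1, and 4 rose and 2 fell after Si-FIBP#2. Of the 14 integrins, 4 rose and 4 fell after Si-FIBP#1, and 5 rose and 3 fell after Si-FIBP#2, and the shares that rose (28.6% and 35.7%) lay near those of all genes. Over the 28 members that reached 1 FPKM in every group, 13 rose and 5 fell after Si-FIBP#1 and 14 rose and 4 fell after Si-FIBP#2, beside 27.2% and 20.5%, and 30.4% and 18.3%, of the 14026 such genes, and 4 were called higher and 1 lower after Si-FIBP#1, beside 2.17% and 3.17% of those genes, and 7 higher and 3 lower after Si-FIBP#2, beside 2.56% and 2.15%. The collagens among them numbered 8, of which 3 rose and 1 fell with either siRNA, and the integrins 13, of which 4 rose and 4 fell after Si-FIBP#1 and 4 rose and 3 fell after Si-FIBP#2. The median log2 difference over all tested members was 0.51 and 1.02 for the laminins, -0.13 and -0.022 for the collagens and 0.075 and 0.12 for the integrins, after Si-FIBP#1 and Si-FIBP#2 in that order. ITGA5, COL4A5 and LAMC1 were called higher and ITGA10 lower with both siRNAs, 3 and 1 of 34 members, beside 235 and 230 of all 14985 genes tested. Direct comparison of the siRNAs called LAMB3 higher and ITGB1 lower after Si-FIBP#2, 1 member each way, beside 0.267% and 0.294% of all genes. Without the fold threshold, 8 members were higher and 4 lower after Si-FIBP#2 than after Si-FIBP#1, beside 9.58% and 5.8% of all genes, or 7 and 3 of the 28 members that reached 1 FPKM in every group, beside 9.92% and 6.01%.

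**Figure D2:**
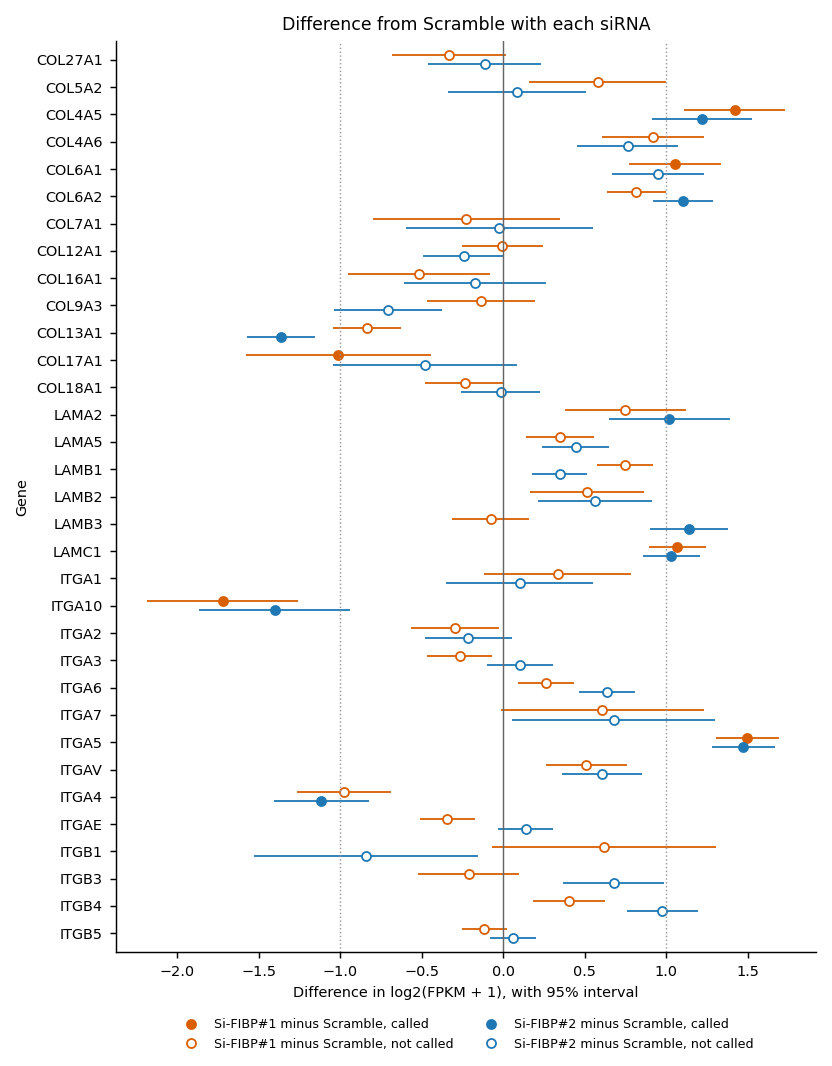
For the same 33 genes, the points give the difference in log2(FPKM + 1) from Scramble after Si-FIBP#1 (orange) and Si-FIBP#2 (blue), the bars are 95% intervals from limma, filled points are called genes and dotted lines mark a 2-fold change. The largest differences on this scale are those of ITGA10 (-1.72 and -1.40) and ITGA5 (1.50 and 1.47), and LAMB3 and ITGB3 are among the genes whose intervals for the 2 siRNAs do not overlap.

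Among the basement membrane collagens, COL4A5 rose with both siRNAs. COL4A5 (chrX:108439844-108697545, plus strand; positions of genes are those of GENCODE 29 on GRCh38) was measured at 2.20, 1.76 and 2.25 FPKM in Scramble, at 8.12, 6.27 and 7.29 after Si-FIBP#1 and at 6.85, 6.79 and 4.94 after Si-FIBP#2. All 6 depleted samples lay above all Scramble samples, and the log2 difference was 1.42 ± 0.14 (SE) after Si-FIBP#1 and 1.22 ± 0.14 after Si-FIBP#2 (limma, adjusted p = 3.28e-05 and 8.67e-05). COL4A6 (chrX:108155607-108439497, minus strand) was measured at 0.42, 0.34 and 0.34 FPKM in Scramble, at 1.78, 1.59 and 1.40 after Si-FIBP#1 and at 1.24, 1.1 and 1.66 after Si-FIBP#2. Its mean FPKM was 4.34 times and 3.64 times that of Scramble, and the log2 difference, which the added 1 compresses at such levels, was 0.92 and 0.76 (limma with no filter, adjusted p = 0.00141 and 0.00337). With 0.1 added in place of 1, it was 1.85 and 1.60, over the 2-fold line with both siRNAs. The other collagen IV chains stayed low, with COL4A1 at most 0.15, COL4A2 at most 0.03, COL4A3 at most 0.16 and COL4A4 at most 0.10 FPKM. In kidney and other basement membranes, the alpha 5 and alpha 6 chains are known to be built into one network.

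COL4A5 and COL4A6 lie head to head on chromosome X, and their RefSeq start sites at 108439838 and 108439458 are 380 nt apart. Another start site of COL4A6 lies 1416 nt from that of COL4A5. The other collagen IV pairs are arranged in the same way, with 127 nt between COL4A1 and COL4A2 and 419 nt between COL4A3 and COL4A4. The promoter windows of COL4A5 and COL4A6 are shown because the genes share this region and all their depleted samples lay above Scramble. Each window runs from 250 bases before to 50 bases after the start site (RefSeq, GRCh38.p14) and is written 5′ to 3′ on the strand of the gene, COL4A5 from chrX:108439588-108439887 (plus) and COL4A6 from chrX:108439409-108439708 (minus). Capitals mark matches to any of 5 motifs that were searched on both strands.
COL4A5: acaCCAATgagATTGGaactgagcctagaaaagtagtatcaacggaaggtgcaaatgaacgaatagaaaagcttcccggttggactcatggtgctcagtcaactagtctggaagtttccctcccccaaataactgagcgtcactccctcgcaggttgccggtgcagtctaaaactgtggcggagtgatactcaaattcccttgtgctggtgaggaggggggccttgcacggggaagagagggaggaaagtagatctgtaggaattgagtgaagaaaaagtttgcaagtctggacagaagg
COL4A6: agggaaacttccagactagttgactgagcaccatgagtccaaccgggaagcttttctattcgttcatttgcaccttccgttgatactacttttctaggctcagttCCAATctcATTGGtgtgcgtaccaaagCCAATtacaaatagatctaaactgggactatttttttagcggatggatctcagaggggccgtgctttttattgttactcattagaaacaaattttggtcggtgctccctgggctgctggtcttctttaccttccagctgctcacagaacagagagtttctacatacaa
The windows overlap by 121 nt, and matches there are counted in both. COL4A5 held 2 CCAAT matches, COL4A6 held 3, and neither window held another of the motifs. The window of the other COL4A6 start, not shown, held 1 GGGCGG match and none of the other motifs. ENST00000334504, from that other start, had means of 0.030, 0.18 and 0.617 FPKM in Scramble, Si-FIBP#1 and Si-FIBP#2, and ENST00000372216, from the start shown, had 0.050, 0.747 and 0.227. Windows were found for 26 of the 34 tested members, 35 windows in all. The motifs were TATAAA, in 20.0% of the members' windows and 11.5% of all 35116 windows, GGGCGG in 65.7% and 45.0%, CCAAT in 17.1% and 34.6%, TGANTCA in 5.71% and 7.71%, and TTCNNNGAA in 8.57% and 7.66%. The last is a form of the STAT motif and the one before it of the AP-1 motif. Such matches describe the letters of these windows and do not show binding.

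The collagen VI chains rose together. COL6A1 (chr21:45981737-46005050) was measured at 12.31, 8.59 and 8.36 FPKM in Scramble, at 22.59, 20.79 and 19.89 after Si-FIBP#1 and at 20.58, 18.31 and 19.75 after Si-FIBP#2. COL6A2 (chr21:46098097-46132849) was measured at 10.97, 9.70 and 9.16 FPKM in Scramble, at 18.61, 17.21 and 18.90 after Si-FIBP#1 and at 23.76, 20.88 and 22.83 after Si-FIBP#2. For both chains every depleted sample exceeded every Scramble sample. The log2 difference of COL6A1 was 1.06 ± 0.13 after Si-FIBP#1 and 0.95 ± 0.13 after Si-FIBP#2 (limma, adjusted p = 0.000126 and 0.000237), and that of COL6A2 was 0.82 ± 0.081 and 1.10 ± 0.081 (limma, adjusted p = 3.96e-05 and 7.1e-06). The call of COL6A1 was lost without Scramble replicate 2 (0.98) or 3 (0.97), and without Scramble replicate 1 COL6A1 was called after Si-FIBP#2 as well (1.12). COL6A3, the chain that completes the classical trimer, was listed at no more than 0.01 FPKM.

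Of the transmembrane collagens, COL13A1 fell with both siRNAs and COL17A1 after Si-FIBP#1. COL13A1 (chr10:69801867-69964275), which is found at sites of cell adhesion, was measured at 14.74, 12.93 and 11.92 FPKM in Scramble, at 7.19, 6.29 and 7.36 after Si-FIBP#1 and at 4.72, 4.42 and 4.40 after Si-FIBP#2. The 3 groups did not overlap. It fell by 0.83 on the log2 scale after Si-FIBP#1 and by 1.36 after Si-FIBP#2 (SE 0.094, limma, adjusted p = 8.4e-05 and 4.83e-06), and it was lower after Si-FIBP#2 than after Si-FIBP#1 (-0.53, adjusted p = 0.00638). Assembled transcripts made up 46.4% of its FPKM, and without them the difference between the siRNAs was -0.22 (adjusted p = 0.496). COL17A1 (chr10:104031286-104085957), a hemidesmosome component, was measured at 2.44, 1.70 and 1.86 FPKM in Scramble, at 0.27, 0.58 and 0.62 after Si-FIBP#1 and at 1.82, 0.39 and 1.50 after Si-FIBP#2. The Si-FIBP#1 samples all lay below Scramble and those of Si-FIBP#2 overlapped with it, and the log2 difference was -1.01 ± 0.25 after Si-FIBP#1 (limma with no filter, adjusted p = 0.0309), against -0.48 (adjusted p = 0.283) after Si-FIBP#2. The Si-FIBP#1 call was lost without Scramble replicate 1 (-0.91) or without Si-FIBP#1 replicate 1 (-0.90).

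Among the remaining collagens, COL9A3 fell after Si-FIBP#2. COL9A3, a fibril-associated chain, was measured at 2.19, 1.29 and 1.64 FPKM in Scramble, at 1.43, 1.49 and 1.41 after Si-FIBP#1 and at 0.74, 0.50 and 0.71 after Si-FIBP#2. It fell after Si-FIBP#2 (-0.70, limma with no filter, adjusted p = 0.0101). Its difference between the siRNAs was -0.57 (adjusted p = 0.071, or 0.0305 with the filter), and without Si-FIBP#2 replicate 2 it was -0.50 (adjusted p = 0.135, or 0.0586 with the filter). TCFL5, which overlaps it on the other strand, had means of 13.7, 8.82 and 8.59 FPKM. COL5A2, a fibrillar chain, was measured at 0.93, 0.67 and 0.42 FPKM in Scramble, at 2.21, 1.29 and 1.08 after Si-FIBP#1 and at 0.75, 0.80 and 0.74 after Si-FIBP#2, with differences of 0.58 and 0.087 that did not pass the test with no filter (limma, adjusted p = 0.0641 and 0.814). COL18A1 was measured at 24.85 to 25.53 FPKM in Scramble, 20.17 to 22.40 after Si-FIBP#1 and 21.51 to 30.37 after Si-FIBP#2 and did not pass the test with either siRNA (adjusted p = 0.1 and 0.925). Its Si-FIBP#1 samples lay below all Scramble samples, and this difference passed in 3 of 17 alternatives (limma, adjusted p from 0.0115 to 0.301). COL12A1, COL16A1, COL27A1 and COL7A1 did not pass the test with either siRNA, with log2 differences between -0.52 and -0.005. Without Si-FIBP#2 replicate 2, COL12A1 was lower after Si-FIBP#2 than in Scramble (-0.35, limma, adjusted p = 0.0179) and than after Si-FIBP#1 (-0.34, adjusted p = 0.0405). The Si-FIBP#1 samples of COL16A1 lay below all Scramble samples, with a mean at 36.3% of Scramble and a log2 difference of -0.52 (limma, adjusted p = 0.0519, or 0.0827 with no filter). With the filter it passed in 5 of 13 alternatives, among them the fit without Si-FIBP#2 replicate 2 (adjusted p = 0.0443, or 0.0789 with no filter), and the adjusted p ranged from 0.0244 to 0.128. Summed over the tested and untested collagens, the level was 76.5 ± 6.71 FPKM in Scramble, 90.4 ± 3.82 after Si-FIBP#1 and 94.0 ± 7.39 after Si-FIBP#2.

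All 7 tested laminin chains rose after Si-FIBP#2, and LAMC1 was called with both siRNAs. LAMC1 (chr1:183023460-183145592), the gamma chain of most laminins, was measured at 36.17, 33.09 and 35.23 FPKM in Scramble, at 74.33, 71.05 and 77.28 after Si-FIBP#1 and at 67.75, 82.01 and 67.94 after Si-FIBP#2. All 6 depleted samples lay far above all Scramble samples, and the siRNA groups overlapped each other. The log2 difference was 1.07 after Si-FIBP#1 and 1.03 after Si-FIBP#2 (SE 0.078, limma, adjusted p = 5.98e-06 and 8.58e-06). The Si-FIBP#2 value lies close to the 2-fold line, and the call was lost without Scramble replicate 2 (0.998), with Ensembl transcripts alone (0.98) and without Si-FIBP#2 replicate 2 (0.94).

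LAMB3 (chr1:209614870-209652466, minus strand), the beta chain of laminin-332, separated the siRNAs. LAMB3 levels were 20.60, 20.78 and 20.44 FPKM in Scramble, 18.74, 20.29 and 19.43 after Si-FIBP#1 and 51.14, 38.07 and 52.12 after Si-FIBP#2. Only the Si-FIBP#2 samples were high, and replicate 2 was the lowest of them. The log2 difference from Scramble was -0.077 after Si-FIBP#1 and 1.14 after Si-FIBP#2 (SE 0.11, limma, adjusted p = 0.578 and 2.83e-05), and it was 1.22 between the siRNAs (adjusted p = 0.000311, or 1.36 without Si-FIBP#2 replicate 2). Assembled transcripts made up 37.0% of LAMB3, and without them the Si-FIBP#2 difference was 0.95 and no longer called. The promoter windows of LAMC1 (chr1:183023170-183023469, plus) and of the downstream LAMB3 start (chr1:209651325-209651624, minus) are shown because the former was called with both siRNAs and the latter after Si-FIBP#2.
LAMC1: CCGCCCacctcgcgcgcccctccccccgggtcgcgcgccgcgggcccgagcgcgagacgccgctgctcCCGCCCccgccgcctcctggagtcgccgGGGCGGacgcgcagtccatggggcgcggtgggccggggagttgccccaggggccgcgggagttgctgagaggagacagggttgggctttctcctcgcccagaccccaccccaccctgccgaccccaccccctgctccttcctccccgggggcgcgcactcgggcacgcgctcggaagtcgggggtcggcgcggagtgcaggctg
LAMB3: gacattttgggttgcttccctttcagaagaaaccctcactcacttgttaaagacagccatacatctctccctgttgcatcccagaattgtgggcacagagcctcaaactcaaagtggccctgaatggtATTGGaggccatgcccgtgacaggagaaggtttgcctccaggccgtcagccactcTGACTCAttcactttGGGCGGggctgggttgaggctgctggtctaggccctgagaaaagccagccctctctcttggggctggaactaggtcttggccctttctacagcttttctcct
The LAMC1 window, at 79.0% GC, held 3 GGGCGG matches and none of the other motifs. The LAMB3 window, at 53.7% GC, held 1 match to each of GGGCGG and CCAAT and 1 to the AP-1 form TGANTCA. The other 2 LAMB3 windows, at the upstream starts, held 1 GGGCGG match each and none of the other motifs. Over all windows the median GC content was 58.7%, and over those of the tested members 62.3%. Transcripts from the upstream and the downstream start of LAMB3 had their highest means after Si-FIBP#2, the downstream ENST00000391911 with 3.70, 5.58 and 12.2 FPKM and the upstream ENST00000356082 with 8.70, 5.85 and 13.5 FPKM in Scramble, Si-FIBP#1 and Si-FIBP#2.

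LAMB1 (chr7:107923799-108003255), the common beta chain, had the opposite order of the siRNAs. LAMB1 had 32.62, 30.33 and 29.53 FPKM in Scramble, 52.31, 54.25 and 50.78 after Si-FIBP#1 and 36.71, 44.35 and 37.72 after Si-FIBP#2. It rose by 0.75 and 0.35 on the log2 scale (SE 0.076, limma, adjusted p = 4.53e-05 and 0.00424), and it was lower after Si-FIBP#2 than after Si-FIBP#1 (-0.40, adjusted p = 0.00814). LAMB1 overlaps DLD on the other strand, which had means of 65.6, 84.2 and 94.4 FPKM, and since the use of strand in counting is not stated, reads of the 2 genes cannot be told apart where they overlap. LAMB2, a beta chain of muscle and kidney basement membranes, was measured at 68.85, 54.73 and 40.63 FPKM in Scramble, at 86.75, 72.12 and 72.62 after Si-FIBP#1 and at 81.77, 77.21 and 79.92 after Si-FIBP#2. All depleted samples lay above the Scramble samples, which were themselves widely spread, and the log2 differences were 0.51 and 0.56 (SE 0.16, limma, adjusted p = 0.0218 and 0.014). The first did not pass without Si-FIBP#1 replicate 1 (0.43, adjusted p = 0.076) or with no filter (adjusted p = 0.0709).

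The alpha chains rose as well. LAMA2 (chr6:128883141-129516569), the alpha chain of muscle laminin, was measured at 2.93, 3.93 and 5.16 FPKM in Scramble, at 8.33, 7.37 and 6.27 after Si-FIBP#1 and at 10.42, 8.60 and 8.09 after Si-FIBP#2. Scramble and depleted samples did not overlap, and the log2 differences were 0.75 and 1.02 (SE 0.17, limma, adjusted p = 0.00466 and 0.000805). The Si-FIBP#2 call was lost without Scramble replicate 1 (0.86) and without Si-FIBP#2 replicate 1 (0.92). LAMA5 (chr20:62307955-62367312), an alpha chain of lung and other adult epithelial basement membranes, was measured at 41.84, 35.09 and 32.93 FPKM in Scramble, at 50.15, 46.94 and 43.33 after Si-FIBP#1 and at 53.24, 47.31 and 49.56 after Si-FIBP#2, with differences of 0.35 and 0.45 (SE 0.092, limma, adjusted p = 0.0112 and 0.00316). It overlaps ADRM1 on the other strand, which was at 159 to 185 FPKM by group mean. LAMA3, the alpha chain that laminin-332 needs, stayed below the filter, with 0.18, 0.24 and 0.27 FPKM in Scramble, 0.65, 0.48 and 0.74 after Si-FIBP#1 and 0.74, 0.75 and 0.36 after Si-FIBP#2. All depleted samples lay above Scramble, and with no filter the log2 differences were 0.40 and 0.39 (limma, adjusted p = 0.0456 and 0.0498). Summed by chain type, the alpha chains went from 41.2 ± 3.39 FPKM in Scramble to 55.1 ± 4.56 and 60.3 ± 4.38, and the beta chains from 106 ± 15.7 to 149 ± 7.79 and 166 ± 5.81.

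Among the integrins that recognise the RGD motif, ITGA5 had the largest rise of all tested members on the log2(FPKM + 1) scale, whereas COL4A6 and COL4A5 had larger ratios of mean FPKM. ITGA5 (chr12:54395261-54419460, minus strand), the alpha chain of the fibronectin receptor, was measured at 18.50, 22.34 and 20.18 FPKM in Scramble, at 60.47, 64.61 and 52.95 after Si-FIBP#1 and at 55.53, 60.37 and 58.61 after Si-FIBP#2. The siRNA groups overlapped each other and lay well above Scramble. The log2 difference was 1.50 after Si-FIBP#1 and 1.47 after Si-FIBP#2 (SE 0.087, limma, adjusted p = 1.61e-06 and 2.23e-06), with -0.024 between the siRNAs (95% interval -0.22 to 0.17). ITGAV (chr2:186590065-186680901), the vitronectin receptor chain, was measured at 14.77, 14.43 and 15.25 FPKM in Scramble, at 19.35, 21.75 and 23.70 after Si-FIBP#1 and at 21.37, 27.69 and 20.75 after Si-FIBP#2, and it rose by 0.51 and 0.61 (SE 0.11, limma, adjusted p = 0.00403 and 0.00152). Its partner ITGB5 was measured at 33.78 to 41.37 FPKM over all 9 samples and did not pass the test with either siRNA (adjusted p = 0.164 and 0.444). ITGB3, another partner of ITGAV, was measured at 0.96, 1.14 and 0.91 FPKM in Scramble, at 0.60, 0.79 and 0.80 after Si-FIBP#1 and at 2.49, 1.74 and 2.43 after Si-FIBP#2. It was higher only in the Si-FIBP#2 samples, by 0.68 against Scramble and by 0.89 against Si-FIBP#1 (SE 0.14, limma with no filter, adjusted p = 0.00864 and 0.0117). Without Si-FIBP#2 replicate 2 the latter was 1.00, at the 2-fold line (adjusted p = 0.00505).

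Of the collagen-binding alpha chains, ITGA10 fell with both siRNAs. ITGA10 (chr1:145891208-145910189, minus strand), a collagen receptor chain known from cartilage, was measured at 6.01, 5.50 and 4.52 FPKM in Scramble, at 1.33, 0.68 and 0.80 after Si-FIBP#1 and at 2.20, 0.89 and 1.26 after Si-FIBP#2. Every depleted sample lay below every Scramble sample. The log2 difference was -1.72 after Si-FIBP#1 and -1.40 after Si-FIBP#2 (SE 0.21, limma, adjusted p = 0.000128 and 0.000441). The promoter windows of ITGA5 (chr12:54419217-54419516, minus) and ITGA10 (chr1:145910001-145910300, minus) are shown as those of the integrins called with both siRNAs, in opposite directions.
ITGA5: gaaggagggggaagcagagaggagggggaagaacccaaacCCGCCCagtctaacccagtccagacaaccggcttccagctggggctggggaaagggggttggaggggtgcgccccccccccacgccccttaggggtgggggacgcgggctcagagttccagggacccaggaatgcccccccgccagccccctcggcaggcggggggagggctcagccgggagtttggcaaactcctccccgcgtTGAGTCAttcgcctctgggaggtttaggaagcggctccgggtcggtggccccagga
ITGA10: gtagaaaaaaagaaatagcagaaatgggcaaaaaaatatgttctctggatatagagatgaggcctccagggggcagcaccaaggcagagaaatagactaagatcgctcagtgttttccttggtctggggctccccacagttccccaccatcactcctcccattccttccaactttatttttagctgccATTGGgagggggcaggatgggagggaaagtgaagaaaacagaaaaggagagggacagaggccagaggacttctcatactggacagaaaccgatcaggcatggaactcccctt
The ITGA5 window, at 69.3% GC, held 1 GGGCGG and 1 TGANTCA match, and the ITGA10 window, at 48.7% GC, held 1 CCAAT match. ITGA2 was measured at 2.18 to 2.66 FPKM in Scramble, 1.72 to 1.78 after Si-FIBP#1 and 1.59 to 2.25 after Si-FIBP#2 and did not pass the test (adjusted p = 0.0661 and 0.165), but without Si-FIBP#2 replicate 2 it was lower after Si-FIBP#1 than in Scramble (-0.30, limma, adjusted p = 0.0411). ITGA1 did not pass it either (adjusted p = 0.198 and 0.709), at 0.85 to 2.28 FPKM over all samples. ITGA1 shares its locus with PELO on the same strand.

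ITGA4 (chr2:181457202-181536187), which binds fibronectin and VCAM-1, was the other integrin that fell with both siRNAs. Its levels were 14.59, 15.17 and 15.21 FPKM in Scramble, 7.71, 5.89 and 7.93 after Si-FIBP#1 and 7.0, 5.17 and 7.14 after Si-FIBP#2. The depleted samples overlapped each other and stayed far below Scramble, with log2 differences of -0.98 and -1.12 (SE 0.13, limma, adjusted p = 0.000234 and 0.000107). These straddle the 2-fold line. Without Si-FIBP#2 replicate 2 the Si-FIBP#2 difference was -0.99 and no longer called, and without Si-FIBP#1 replicate 1 or 3 that of Si-FIBP#1 was called (-1.03 and -1.05). ITGAE was measured at 37.22 to 43.80 FPKM in Scramble, 28.74 to 32.32 after Si-FIBP#1 and 42.38 to 45.84 after Si-FIBP#2. It fell after Si-FIBP#1 (-0.34, limma, adjusted p = 0.00469) and had a difference of 0.14 after Si-FIBP#2 (adjusted p = 0.162), and the siRNAs differed by 0.48 (adjusted p = 0.00368). Most of its level came from ENST00000572179, a transcript of 672 nt with a mean of 34.9 FPKM in Scramble, so the level of full-length ITGAE, the partner of ITGB7 on lymphocytes, is not shown by this sum. HASPIN lies within its locus on the other strand and had means of 5.14, 1.77 and 2.63 FPKM. ITGB7 was at most 0.09 FPKM.

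Of the laminin-binding alpha chains, ITGA6 rose with both siRNAs. It was measured at 92.06, 95.22 and 89.65 FPKM in Scramble, at 106.78, 109.30 and 117.01 after Si-FIBP#1 and at 152.77, 126.20 and 154.85 after Si-FIBP#2. The 3 groups did not overlap, and the log2 differences were 0.26 and 0.64 (SE 0.077, limma, adjusted p = 0.0188 and 0.000144). The first did not pass under median ratio scaling (0.18, adjusted p = 0.0985), with no filter (adjusted p = 0.0502), or without Scramble replicate 3 (adjusted p = 0.0611) or Si-FIBP#1 replicate 3 (adjusted p = 0.0668). Of its main transcripts, ENST00000264107 had means of 37.4, 55.8 and 73.4 FPKM in Scramble, Si-FIBP#1 and Si-FIBP#2, and ENST00000409080 had means of 47.0, 47.2 and 58.7 FPKM. Its partner ITGB4 was measured at 6.52, 5.72 and 6.46 FPKM in Scramble, at 8.84, 9.35 and 7.60 after Si-FIBP#1 and at 13.51, 11.94 and 14.34 after Si-FIBP#2. ITGB4 thus followed the same 3 steps, with log2 differences of 0.41 and 0.98 (SE 0.098, limma, adjusted p = 0.00728 and 4.4e-05) and of 0.57 between the siRNAs (adjusted p = 0.0054). The Si-FIBP#2 difference was called without Scramble replicate 1 (1.01), Scramble replicate 3 (1.00) or Si-FIBP#2 replicate 2 (1.05).

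ITGA3, the most abundant laminin-binding chain, was measured at 231.09, 218.26 and 211.22 FPKM in Scramble, at 190.93, 182.50 and 175.02 after Si-FIBP#1 and at 274.00, 206.42 and 234.40 after Si-FIBP#2. It fell after Si-FIBP#1 (-0.27, limma, adjusted p = 0.034), overlapped with Scramble in Si-FIBP#2 (0.11, adjusted p = 0.364) and differed between the siRNAs by 0.37 (adjusted p = 0.0227). Without Si-FIBP#2 replicate 2 its difference from Scramble after Si-FIBP#2 was 0.20 and passed the test (adjusted p = 0.0461). The Si-FIBP#1 result was lost with no filter and without Scramble replicate 1 or 2 or Si-FIBP#1 replicate 2 or 3 (adjusted p from 0.0704 to 0.101), and that between the siRNAs with no filter, with the compared groups alone and without Si-FIBP#1 replicate 2 or 3 or Si-FIBP#2 replicate 3 (adjusted p from 0.0514 to 0.0712). ITGA7, a muscle laminin receptor chain, was measured at 2.73, 1.46 and 1.12 FPKM in Scramble, at 4.43, 2.57 and 2.56 after Si-FIBP#1 and at 3.60, 4.64 and 2.08 after Si-FIBP#2 and did not pass the test (adjusted p = 0.0984 and 0.068). It overlaps BLOC1S1 on the other strand, which was at 87.8 to 106 FPKM by group mean. LAMB3 of laminin-332 and ITGA6 and ITGB4 of its hemidesmosome receptor were all higher after Si-FIBP#2 than after Si-FIBP#1. LAMA3 of laminin-332, at most 0.75 FPKM, was not (-0.012 with no filter). COL17A1 of the hemidesmosome differed by 0.53 (limma with no filter, adjusted p = 0.375), and without Si-FIBP#2 replicate 2 the difference was 0.84 and passed (adjusted p = 0.0362). COL6A2, ITGA3, ITGAE and ITGB3 were also higher in this comparison, in which 4 members were lower. The difference of COL6A2 was 0.29 (limma, adjusted p = 0.042). It passed in 7 of 17 alternatives, with adjusted p from 0.0242 to 0.136.

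ITGB1 (chr10:32900319-33005792, minus strand), the common beta chain and the most abundant member, had the largest SD within a group of all tested members (131 FPKM after Si-FIBP#2). It was measured at 342.39, 355.14 and 362.46 FPKM in Scramble, at 460.78, 567.44 and 612.85 after Si-FIBP#1 and at 143.84, 370.78 and 142.82 after Si-FIBP#2. All Si-FIBP#1 samples lay above Scramble, Si-FIBP#2 replicates 1 and 3 lay far below it, and replicate 2 lay slightly above it. With all samples, the log2 difference was 0.62 after Si-FIBP#1 and -0.84 after Si-FIBP#2 (SE 0.31, limma, adjusted p = 0.125 and 0.0457), and the siRNAs differed by -1.46 (adjusted p = 0.0127). Without Si-FIBP#2 replicate 2, these became 0.62 (adjusted p = 0.000604), -1.29 (adjusted p = 2.85e-05) and -1.92 (adjusted p = 3.29e-05). Fitted on the compared groups alone, ITGB1 had an adjusted p of 0.00158 after Si-FIBP#1 and of 0.0778 after Si-FIBP#2 by limma, and with no filter on low genes the adjusted p was 0.131 after Si-FIBP#2 and 0.0524 between the siRNAs. The difference from Scramble after Si-FIBP#2 also did not pass when any 1 of the other 8 samples was left out (adjusted p from 0.0544 to 0.151). In that library FIBP was at 5.92 FPKM, within the range of the other depleted samples.

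The processed pseudogene ITGB1P1 (ENSG00000269378), which can share reads with ITGB1, was listed at 95.38, 87.98 and 77.94 FPKM in Scramble, at 113.77, 141.31 and 131.61 after Si-FIBP#1 and at 21.69, 100.80 and 28.18 after Si-FIBP#2. Its Si-FIBP#2 replicates 1 and 3 were again far below Scramble and replicate 2 was not, so the split of reads between the 2 genes is uncertain. Their sum was 437.77, 443.12 and 440.40 FPKM in Scramble, 574.55, 708.75 and 744.46 after Si-FIBP#1 and 165.53, 471.58 and 171.00 after Si-FIBP#2, and it kept the pattern of ITGB1. The alpha chains that pair with ITGB1 alone, ITGA3 above all, summed to 251 ± 10.0 FPKM in Scramble, 250 ± 13.3 after Si-FIBP#1 and 305 ± 32.2 after Si-FIBP#2. ITGB1 over that sum was 1.31, 1.41 and 1.50 in Scramble, 1.77, 2.23 and 2.60 after Si-FIBP#1 and 0.42, 1.35 and 0.48 after Si-FIBP#2. This ratio was below 1 only in Si-FIBP#2 replicates 1 and 3. Among the 12 members with an adjusted p below 0.05 between the siRNAs, Si-FIBP#2 replicate 2 was the sample of its group nearest to the Si-FIBP#1 mean for 9 (75.0%), replicate 1 for 3 and replicate 3 for 0. Among all 2304 such genes, replicate 2 was the nearest for 53.2%. The part of this library in the differences between the siRNAs was not tested beyond leaving it out.

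Within a sample, the ratio of chains that form 1 molecule shifted for some pairs. The log2 ratio of LAMB1 to LAMC1 was -0.26 to -0.13 in Scramble, -0.61 to -0.39 after Si-FIBP#1 and -0.89 to -0.85 after Si-FIBP#2, so the 3 groups did not overlap. For ITGA5 to ITGB1 it was -4.21 to -3.99 in Scramble, -3.53 to -2.93 after Si-FIBP#1 and -2.62 to -1.28 after Si-FIBP#2, again without overlap. ITGAV to ITGB5 went from -1.47 to -1.34 in Scramble to -0.90 to -0.51 after Si-FIBP#1 and -0.99 to -0.58 after Si-FIBP#2. The ratio of ITGA6 to ITGB4 overlapped between Scramble (3.79 to 4.06) and Si-FIBP#1 (3.55 to 3.94) and was lower in all Si-FIBP#2 samples (3.40 to 3.50). That of COL6A2 to COL6A1 was -0.17 to 0.18 in Scramble, -0.28 to -0.074 after Si-FIBP#1 and 0.19 to 0.21 after Si-FIBP#2, so the Si-FIBP#2 samples lay above all others. These ratios were not tested.

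Genes outside the 3 families were taken from lists of related proteins. Of 26 tested genes, from 30 listed, for enzymes and chaperones that modify, fold and export collagen, 13 rose and 3 fell after Si-FIBP#1 (beside 27.8% and 19.9% of all genes), and 16 rose and 5 fell after Si-FIBP#2 (beside 31.1% and 17.7%), with medians of 0.30 and 0.33 on the log2 scale against 0.073 and 0.11 over all genes. LOXL3 of this list reached 1 FPKM in Scramble and Si-FIBP#1 alone, so its difference was partly built into the filter. MIA3, whose product loads collagen into transport carriers, was the gene called with both siRNAs. It was measured at 9.66, 11.63 and 9.50 FPKM in Scramble, at 20.94, 21.69 and 23.26 after Si-FIBP#1 and at 23.13, 24.82 and 23.96 after Si-FIBP#2. The depleted samples all lay above Scramble, with log2 differences of 1.03 and 1.15 (limma, adjusted p = 1e-05 and 5.85e-06). The first lies at the 2-fold line, and the call was lost without Scramble replicate 1 (0.99) or 3 (0.98) or Si-FIBP#1 replicate 3 (0.99) and under median ratio scaling (0.96).

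Of 12 tested genes, from 16 listed, for other basement membrane and adhesive glycoproteins, 4 rose and 2 fell after Si-FIBP#1, and 4 rose and 3 fell after Si-FIBP#2, with medians of 0.12 and 0.095. The share that rose, 33.3% with either siRNA, lay near the 27.8% and 31.1% of all genes, of which 19.9% and 17.7% fell. FBN1, the main protein of microfibrils and an RGD ligand of integrins, was measured at 10.20, 7.77 and 12.12 FPKM in Scramble, at 44.28, 41.08 and 40.12 after Si-FIBP#1 and at 29.80, 37.70 and 30.76 after Si-FIBP#2. It was higher in all depleted samples, by 1.98 and 1.63 on the log2 scale (limma, adjusted p = 4.84e-06 and 1.78e-05). THBS1, a matrix glycoprotein that binds integrins and CD36, was measured at 33.85, 31.78 and 29.86 FPKM in Scramble, at 12.04, 9.02 and 8.77 after Si-FIBP#1 and at 3.56, 2.48 and 2.20 after Si-FIBP#2. Its 3 groups did not overlap, and it fell by 1.60 and 3.15 (limma, adjusted p = 2.56e-05 and 8.21e-07). DAG1, which encodes the laminin receptor dystroglycan and was named after its values were seen, was called after Si-FIBP#2 alone, at 39.33, 38.72 and 37.72 FPKM in Scramble, 40.86, 40.06 and 43.56 after Si-FIBP#1 and 12.10, 20.03 and 10.39 after Si-FIBP#2 (0.10 and -1.44, limma, adjusted p = 0.675 and 0.000176). BCAM of the same list, also named after its values were seen, was higher in all depleted samples. Its means were 8.75, 13.3 and 17.2 FPKM in Scramble, Si-FIBP#1 and Si-FIBP#2.

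Of 24 listed genes for integrin adaptors and focal adhesion, among them the kinases PTK2 and SRC, 21 were tested. After Si-FIBP#1, 4 rose and 9 fell (19.0% and 42.9%, beside 27.8% and 19.9% of all genes). After Si-FIBP#2, 2 rose and 10 fell (9.52% and 47.6%, beside 31.1% and 17.7%). The medians were -0.082 and -0.22, against 0.073 and 0.11 over all genes. PTK2 had means of 68.0, 103.5 and 116.7 FPKM in Scramble, Si-FIBP#1 and Si-FIBP#2, and SRC had means of 7.88, 9.24 and 8.46. FLNA, which binds beta chains and crosslinks actin, was measured at 306.23, 294.77 and 290.38 FPKM in Scramble, at 126.72, 108.37 and 99.93 after Si-FIBP#1 and at 131.13, 72.23 and 110.17 after Si-FIBP#2. All depleted samples were below Scramble, with log2 differences of -1.41 and -1.54 (limma, adjusted p = 0.000185 and 0.000112). Among 11 tested matrix proteases and inhibitors, from 18 listed, 4 rose and 2 fell after Si-FIBP#1 and 3 rose and 1 fell after Si-FIBP#2, and the 36.4% and 27.3% that rose lay near the shares of all genes. Their medians were 0.079 and 0.20, and 0 were called by limma with either siRNA. MMP10, MMP13 and MMP15 reached 1 FPKM in FIBP-depleted samples alone, so for them a difference was partly built into the filter.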

How the data were processed

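H1299 cells were profiled by poly(A) RNA-seq in 9 samples, 3 each of Scramble, Si-FIBP#1 and Si-FIBP#2, as the sample labels give them. The authors deposited 1 table per sample, which lists known Ensembl transcripts beside newly assembled ones, each with a value of 2 decimals. The unit of these deposited values was read as FPKM from the values themselves. The submitters' processing notes name HISAT2 and StringTie, and the genome build is not given in the sources used here. FPKM were summed per gene identifier, and genes that reached 1 FPKM in 3 or more of the 9 samples entered the test on log2(FPKM + 1) with limma 3.58.1 in R 4.3.3 (empirical Bayes with a mean-variance trend, 1 fit of all 9 samples) and Benjamini-Hochberg adjustment over all 14985 genes. A call required an FDR below 0.05 and a fold change over 2 on this scale, which understates changes of low genes.

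FPKM hold no counts. Depth was estimated from the step that 1 fragment makes in low values of genes with 1 transcript of 800 to 2000 nt (mean cosine 0.732 to 0.79, where 1 is exact), and precision is given by the spread of samples. Gene positions are from GENCODE 29 (GRCh38) and promoters from RefSeq (GRCh38.p14), matched by identifier or symbol, and the release the authors used may differ. The named genes were FIBP, every member called in a comparison, the highest member of each class in Scramble, chains of the ratios, up to 5 genes per list called with both siRNAs, and the members next to the 1 FPKM threshold. Of the tested members, 1 is counted but not reported here by name. Members, classes and lists were chosen with earlier results of these data known. Alternatives were a pseudocount of 0.1, no filter, a filter of 5 FPKM, TPM, median ratio scaling, Ensembl transcripts only, only the groups compared, the replicate number as a block, no fold threshold and leaving out each sample. Summaries and figures were made with Python 3.11.15, pandas 2.3.3 and matplotlib 3.10.9.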

Additional observations from a re-analysis of the deposited data

Results flagged for a closer look

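The siRNAs differed for 2 called members in limma's direct comparison of Si-FIBP#2 with Si-FIBP#1. FIBP itself did not differ between them (0.13 on the log2 scale, limma, adjusted p = 0.686), and the cause of the 2 differences was not tested. LAMB3 was higher after Si-FIBP#2 by 1.22 on the log2 scale (adjusted p = 0.000311), with 38.07 to 52.12 FPKM against 18.74 to 20.29, and the difference was larger without Si-FIBP#2 replicate 2 (1.36). ITGB1 was lower after Si-FIBP#2 by -1.46 (adjusted p = 0.0127), with 142.82 to 370.78 FPKM against 460.78 to 612.85, and the difference was -1.92 without Si-FIBP#2 replicate 2, whose level of 370.78 lay above all Scramble samples.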

How the results depend on the processing

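Of 1935 log2 differences of named genes and members recomputed under the alternatives, 1817 kept their side of the threshold, 69 became weaker and 49 became stronger. The sign changed for 30, with an adjusted p of 0.05 or more under both settings. Without the fold threshold, 7146, 7309 and 2304 genes passed for Si-FIBP#1, Si-FIBP#2 and the difference between the siRNAs, and the members numbered 15 higher and 6 lower, 16 higher and 5 lower, and 8 higher and 4 lower. A pseudocount of 0.1, which weights low genes more, called 1498, 1411 and 172 genes, against 848, 757 and 84. With it 11 members were called higher after Si-FIBP#2, and 2 higher and 2 lower between the siRNAs. The share of calls that were higher went from 45.0% to 56.7%, from 57.9% to 67.5% and from 47.6% to 61.0%, and with TPM the last was 60.4%, with 2 members higher. Median ratio scaling called 2 members higher after Si-FIBP#1 and 4 after Si-FIBP#2, and it moved the median of all genes after Si-FIBP#2 from 0.11 to 0.0047, by over 0.1, and the share of higher calls fell to 37.0% and 42.3%. ITGA5 and COL4A5 with both siRNAs and LAMB3 after Si-FIBP#2 were still called under it. A filter of 5 FPKM left 0 members called lower after Si-FIBP#1, because ITGA10 was kept out of the test with COL17A1, and with no filter 0 were called lower between the siRNAs (ITGB1, adjusted p = 0.0524, cause not tested).

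Leaving out 1 sample at a time gave 1 to 3 members lower after Si-FIBP#1 (1 without Scramble replicate 1, where COL17A1 was lost), 73 to 128 genes and 1 to 2 members higher between the siRNAs, the highest of both without Si-FIBP#2 replicate 2. Deviations of same-numbered samples of different groups had correlations of -0.057 to 0.10 over 9 pairs. For other numbers they were -0.14 to 0.049 over 18 pairs. All were small, so the numbers were not taken as pairs. With the replicate number as a block, the same counts of members were called, 4 and 2, 7 and 3, and 1 and 1, and 853, 760 and 88 genes in all, and ITGA7 had adjusted p-values of 0.0346 and 0.0223 against Scramble. FPKM without counts allow no counting interval, and members near 1 FPKM, such as COL16A1 and COL17A1, rest on few fragments. The fits with no filter and without Si-FIBP#2 replicate 2 together, for the 6 members that had a group with no sample at 1 FPKM, were chosen after seeing the data.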
